A study of Mus musculus with 36 samples.

Results

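The data described here were ATAC-seq profiles of allospecific conventional CD4+ T cells (Tconv) that lacked HP1γ, set against HP1γ-sufficient Tconv from the same allograft model, in recipients that received no regulatory T cells (Treg). The 6 libraries, 3 KO and 3 WT, were chosen by their genotype label and by the absence of Treg from the condition label, and they are 6 of the 36 libraries of the study. Of the 71512 intervals of the count table, 3 of zero width were dropped, and 71508 of the remaining 71509 held enough reads to be tested. ATAC-seq cuts and tags DNA where nucleosomes leave it accessible, so the read count of a peak measures how open that stretch of chromatin is.

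In this model, lethally irradiated C57BL/6 mice received a mixture of syngeneic C57BL/6 and semi-allogeneic B6D2F1 bone marrow together with naive CD4+ T cells of either genotype, and 21 days later Vβ6+ Tconv were sorted from the spleen. KO cells came from mice homozygous for a floxed Cbx3 allele (the gene of HP1γ, written Hp1g by the study) that carried a Cd4-cre transgene, and WT cells came from floxed littermates without the transgene. All of these mice were of mixed strain background. Libraries used only for comparison were HP1γ KO and WT naive CD4+ T cells (3 and 3), HP1γ KO and WT Tconv transferred together with Treg (3 and 3), and Tconv and naive cells of a separate HP1α line in which CMV-cre removed HP1α. The labels do not say which libraries came from separate animals, so p-values below measure a spread between libraries, which may be partly technical. Except where only the 6 libraries were fitted, this spread was estimated over all 18 HP1γ libraries, those of naive cells and of Tconv with Treg included.

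HP1γ belongs to the heterochromatin protein 1 family, which binds histone H3 methylated on lysine 9 and helps to keep genes and repeats silent, and HP1γ is also found along transcribed genes. An activated CD4+ T cell can become a Th1 cell under T-bet, a Th2 cell under GATA3, a Th17 cell under RORγt or a follicular helper cell under BCL6, and long stimulation by alloantigen can lead to exhaustion, for which TOX and inhibitory receptors are known. Each of these fates opens its own set of distal regulatory elements, and heterochromatin is one of the layers that keep the genes of the other fates closed.

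The changes described most fully here are lower peaks at genes of the Th2 program and the share of all lower peaks that hold, near their centre, the letters AGATAAG, the form recognised by GATA factors such as GATA3. The stretches below each hold a match with 60 bases on either side of it, given 5′ to 3′ on the plus strand of GRCm39, with the motif in capitals; CTTATCT is the same motif read on the other strand. They lie in 4 peaks of Il1rl1, Gata3 and Il4 called lower in KO, were chosen after the values were seen, and are 127 bases long each. Of the 16 lower Th2 peaks counted further on, 6 hold these letters, and the Il4 peak of smallest p and both lower Il13 peaks do not, searched over the whole of each peak. The first is chr1:40457794-40457920, upstream of Il1rl1, with 3 matches. The second is chr1:40468453-40468579, just before the start of Il1rl1. The third is chr2:9865222-9865348, in an intron of Gata3, and the last is chr11:53508671-53508797, in the start-site peak of Il4.
Il1rl1 upstream: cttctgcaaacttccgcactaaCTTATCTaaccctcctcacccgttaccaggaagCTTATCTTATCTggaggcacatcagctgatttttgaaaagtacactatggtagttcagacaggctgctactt
Il1rl1 start: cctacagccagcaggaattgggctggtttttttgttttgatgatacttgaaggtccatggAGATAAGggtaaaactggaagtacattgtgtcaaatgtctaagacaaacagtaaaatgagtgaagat
Gata3: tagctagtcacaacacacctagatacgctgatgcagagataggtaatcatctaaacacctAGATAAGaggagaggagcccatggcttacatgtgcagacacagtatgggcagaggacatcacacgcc
Il4: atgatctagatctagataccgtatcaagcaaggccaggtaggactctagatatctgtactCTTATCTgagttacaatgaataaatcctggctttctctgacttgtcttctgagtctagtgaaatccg

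Loss of HP1γ changed accessibility in both directions. At an adjusted p under 0.05 and a change of more than 1 on the log2 scale, 1207 peaks were higher in KO, which is 1.69% of those tested, and 1185 were lower, which is 1.66%. Together the 2392 peaks make up 3.35% of the peaks tested (edgeR quasi-likelihood test with Benjamini-Hochberg adjustment over all peaks). The median log2 change was 1.48 for the higher peaks and -1.41 for the lower ones, against 0.0233 over all peaks, and the range ran from -4.20 to 5.33. A change of more than 2 on the log2 scale was seen in 286 of the higher and 178 of the lower peaks.

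The higher peaks were separated more cleanly between libraries than the lower ones. All 3 KO libraries lay above all 3 WT libraries in 1124 of the 1207 higher peaks, against 10.7% of all peaks that were separated in this direction. All 3 KO libraries lay below all 3 WT libraries in 831 of the 1185 lower peaks, against 7.85% of all peaks. The same libraries made the calls, so much of this separation follows from the choice of peaks. The median level of the higher peaks was 2.35, 2.86 and 2.51 reads scaled to library size (CPM) in the KO libraries and 0.757, 0.752 and 0.973 CPM in the WT libraries. The median level of the lower peaks was 1.34, 1.29 and 0.872 CPM in KO and 4.05, 3.56 and 1.85 CPM in WT. WT replicate 3 was thus the WT library nearest to the KO libraries at lower peaks, and KO replicate 3 the lowest. With the older form of the quasi-likelihood test, 887 peaks were higher and 404 lower, of which 775 and 400 were among those above. The balance between directions depended on the libraries and the fit, with 735 higher and 220 lower peaks when KO replicate 3 was left out, 1414 and 2377 when WT replicate 3 was, and 387 and 73 when only the 6 libraries were fitted.

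**Figure D1:**
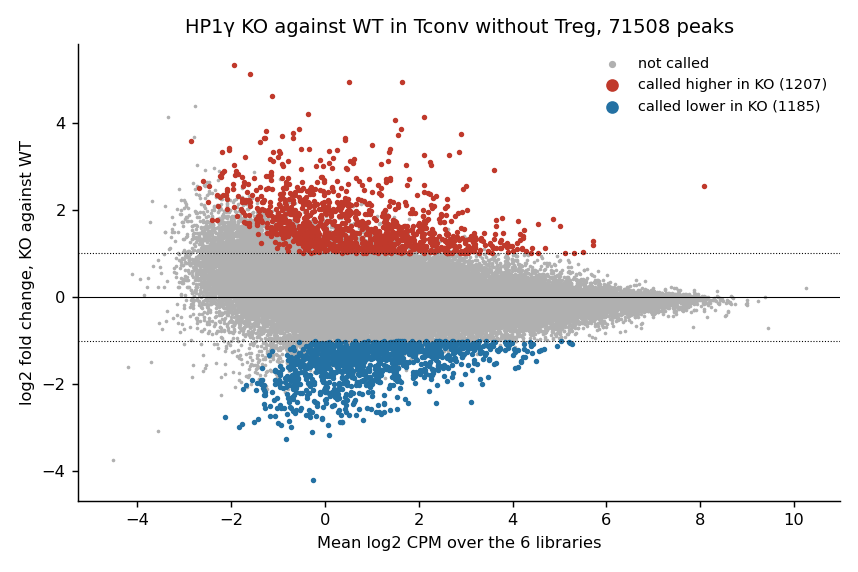
Log2 change of accessibility in HP1γ KO against WT Tconv (vertical axis) by mean log2 CPM over the 6 libraries (horizontal axis), 1 point per peak tested. Coloured points are the 1207 higher and 1185 lower peaks, which spread over most of the range of levels and thin out at the most open peaks.

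The libraries held between 32599944 and 69210420 counted reads, with KO replicate 2 the smallest. Reads within 1 kb of a transcription start site made up 73.9% ± 0.512 of the KO reads and 73.5% ± 0.927 of the WT reads (mean ± SD of 3 libraries each) (two-sided exact permutation test, p = 0.4, where 3 against 3 cannot go below 0.1). The start-site peaks of CD4 T cell markers other than Cd4 summed to 744 to 888 CPM in KO and 735 to 941 CPM in WT, while those of CD8 T cells summed to 4.65 to 5.26 and 2.5 to 4.22 CPM, NK cells to 3.54 to 5.4 and 3.87 to 6.8 CPM, B cells to 12.1 to 17.3 and 10.2 to 17.5 CPM, myeloid cells to 43.1 to 46.9 and 36.7 to 44.0 CPM, and erythroid cells to 9.47 to 11.5 and 7.63 to 10.7 CPM. No peak with a marker of those other lineages as nearest start site was called, and by nearest coding gene 1 was, a higher one of the B cell factor Ebf1. The 2 Treg markers, Foxp3 and Ikzf2, summed to 57.0 to 69.4 CPM in KO and 34.5 to 49.9 CPM in WT, with Ikzf2 called higher and the Foxp3 peak not called (log2 change 0.28, adjusted p = 0.412). In naive cells of both genotypes the same sum was 54.9 to 87.8 CPM.

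The peak over the shared promoter of Cbx3 and Hnrnpa2b1 (chr6:51444471-51448810) did not pass the test, at 172, 179 and 183 CPM in KO and 161, 180 and 188 CPM in WT (log2 change 0.02, adjusted p = 0.928). An open promoter does not report whether the floxed part of the gene was deleted, so this peak checks nothing about the genotype. The smallest p of all peaks belonged to Cd4 (chr6:124856622-124866115), with 600, 655 and 702 CPM in KO and 112, 106 and 116 CPM in WT (log2 change 2.55 ± 0.10, SE). The same peak differed by 2.77 in naive cells and by 2.60 in Tconv with Treg, and by 0.08 in the HP1α line. KO cells carried a transgene named for Cd4 and WT cells did not, and reads of the transgene and of the Cd4 gene itself cannot be told apart here. Within 50 kb of Cd4, 2 of 17 peaks were called, both of them nearest to Cd4, and within 10 Mb of Cbx3, 2.54% of peaks were called.

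Th2 genes were the clearest group, and all of their called peaks were lower in KO. Of 42 peaks whose nearest start site belonged to one of 9 Th2 genes, 16 were lower and 0 higher, which is 38.1% against 1.66% of all peaks, and their median log2 change was -0.947. The 16 were 8 peaks of Il1rl1, which encodes the IL-33 receptor ST2, and 2 each of Ccr4 (a chemokine receptor of Th2 cells and Treg), Gata3 (the factor that directs the Th2 fate), Il13 and Il4 (the Th2 cytokines). When peaks were given to the nearest protein-coding gene instead, 25 of 133 were lower and 0 higher. With the older form of the test the numbers were 7 and 9. Left out in turn, WT replicate 2 gave 8 lower peaks by nearest start site and KO replicate 3 gave 7, and a fit on the 6 libraries alone gave 2.

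At Il1rl1, the peak of smallest p (chr1:40457711-40458080, the first sequence above) held 0.506, 0.829 and 0.306 CPM in KO and 3.52, 3.78 and 1.52 CPM in WT. The KO libraries all lay below the WT libraries (log2 change -2.60 ± 0.41, SE, adjusted p = 0.00112). The 11 peaks nearest to this gene had changes from -2.60 to -0.29 with a median of -1.47, and since they share 1 locus they are not independent of each other.

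Some peaks in Gata3 and around it were lower in KO, and those given here were chosen after their values were seen. The intron peak that holds the third sequence above (chr2:9864611-9866190) had 3.46, 3.89 and 1.56 CPM in KO and 16.2, 12.1 and 4.54 CPM in WT (log2 change -2.03 ± 0.38, SE, adjusted p = 0.00477). KO replicate 3 and WT replicate 3 were the lowest of their groups, and the groups did not overlap. Of the 70 peaks for which Gata3 was the nearest coding gene, 9 were lower and 0 higher, against 1.66% and 1.69% of all peaks. The median log2 change of the 70 was -0.499. The 9 lower peaks reached as far as chr2:9121541-9122050, 756433 bases from the start of Gata3 (log2 change -2.18, adjusted p = 0.00339). Among them was a peak next to Dreg1, an enhancer RNA gene near Gata3, at 0.668, 0.829 and 0.459 CPM in KO and 0.935, 2.50 and 1.64 CPM in WT.

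In the Th2 cytokine cluster on chromosome 11, peaks of Il4 and Il13 were lower. An intron peak of Il4 (chr11:53495961-53497120) had 4.49, 5.34 and 4.86 CPM in KO and 15.5, 16.1 and 10.8 CPM in WT (log2 change -1.55 ± 0.19, SE, adjusted p = 0.00015). It was the Th2 peak of smallest p, and all 4 peaks of Il4 had KO libraries below WT libraries without overlap, against 7.85% of all peaks. The start-site peak of Il13 (chr11:53525281-53525770) had 2.27, 3.14 and 1.99 CPM in KO and 4.94, 8.02 and 4.77 CPM in WT (log2 change -1.32 ± 0.24, SE, adjusted p = 0.00299), and lost its call with the older form of the test and with only the 6 libraries fitted (adjusted p up to 0.0738). Il5, in the same cluster and the cytokine of eosinophils, had no called peak among its 6 by nearest coding gene (median -0.253, smallest adjusted p = 0.0729).

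Ccr4, the remaining Th2 gene with lower peaks, was lower at 2 of its 9 peaks by nearest start site. The peak of smallest p (chr9:114338131-114339550) lay in an exon of the neighbouring gene Trim71 and also held the GATA letters, with 9.09, 5.46 and 4.63 CPM in KO and 30.2, 25.6 and 10.4 CPM in WT (log2 change -1.83 ± 0.32, SE, adjusted p = 0.00272). The KO range ended below the lowest WT library.

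**Figure D2:**
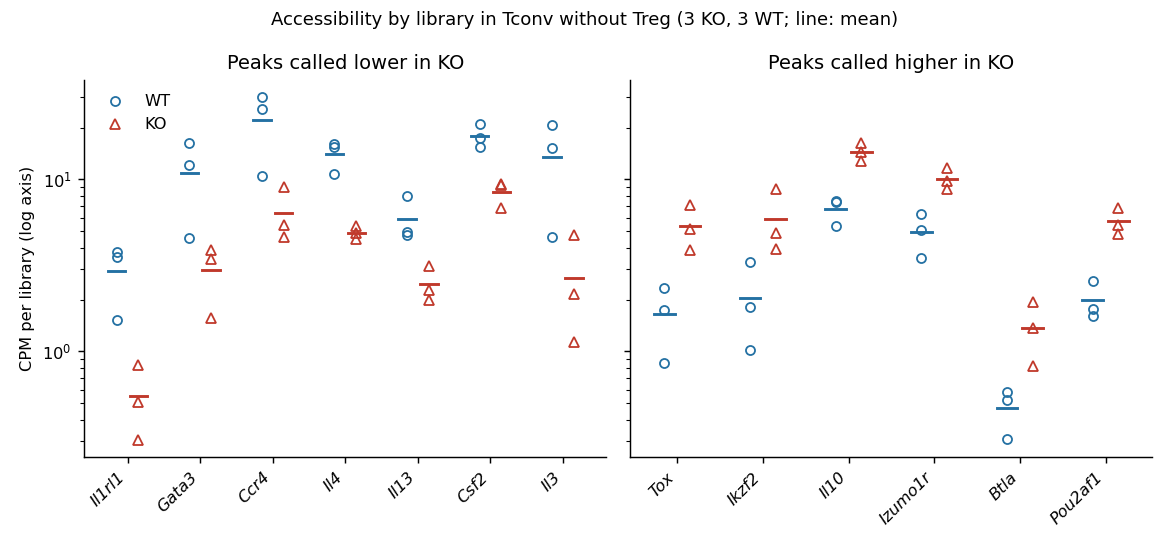
Level in CPM (log axis) of named peaks in each of the 3 KO and 3 WT libraries, with 1 point per library and a line at the mean of each group. KO and WT libraries of the Il4 intron peak do not overlap, at 4.49 to 5.34 CPM and 10.8 to 16.1 CPM.

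Csf2 and Il3, which encode GM-CSF and IL-3 and lie further along chromosome 11, were the effector cytokine genes with lower peaks. The start-site peak of Csf2 (chr11:54139581-54140880) held 9.39, 6.80 and 9.25 CPM in KO and 15.5, 20.9 and 17.4 CPM in WT (log2 change -1.04 ± 0.19, SE, adjusted p = 0.00464). Of the 16 peaks for which Csf2 was the nearest coding gene, 7 were lower, and 11 had KO below WT without overlap. Over all peaks these shares were 1.66% and 7.85%. The Il3 peak of smallest p (chr11:54162201-54163040), 4098 bases from the start of Il3 and in an intron of the long noncoding gene Gm57329, held 4.73, 2.17 and 1.13 CPM in KO and 20.6, 15.3 and 4.61 CPM in WT, so that KO replicate 1 just exceeded WT replicate 3 (log2 change -2.43, adjusted p = 0.00558). A sparser peak at the Il3 start (chr11:54158131-54158480), chosen after its values were seen, was also lower, with 0.243, 0.629 and 0.214 CPM in KO and 2.05, 1.54 and 0.35 CPM in WT (log2 change -2.10, adjusted p = 0.0245). The list of 14 effector cytokine genes had 4 lower (10.3%) and 1 higher (2.56%) of 39 peaks by nearest start site, against 1.66% and 1.69% of all peaks. Without WT replicate 2 the lower ones numbered 2, and without KO replicate 3, 1. The Csf2 start-site peak lost its call without WT replicate 2 or KO replicate 2 and with library size alone, and its change was as small as -0.92. The Il3 peak of smallest p lost its call without KO replicate 3 and with only the 6 libraries fitted (highest adjusted p over the alternatives 0.0831).

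Il10 and Il21 were the effector cytokine genes that moved the other way. Il10, a cytokine that restrains immune responses and is made by Treg and by chronically stimulated T cells, had 1 of 15 peaks higher (chr1:130965591-130967230). It held 14.5, 16.3 and 12.8 CPM in KO and 7.42, 7.49 and 5.35 CPM in WT (log2 change 1.07 ± 0.23, SE, adjusted p = 0.0122), with every KO library above every WT library. Its change went down to 0.91, below the fold threshold, and the call was lost without WT replicate 3 or KO replicate 2, with offsets on GC content and with limma voom. Il21, the cytokine of follicular helper cells, had 3 higher of 18 peaks by nearest coding gene. These were chosen after their values were seen, and the strongest (chr3:37286281-37287990) had 15.2, 16.6 and 16.2 CPM in KO and 5.88, 5.51 and 7.67 CPM in WT (log2 change 1.34, adjusted p = 0.00222). Of the other follicular helper genes, Pou2af1, a B and T cell coactivator, had 4.80, 6.86 and 5.45 CPM in KO and 1.77, 1.61 and 2.57 CPM in WT (log2 change 1.52, adjusted p = 0.00521). That list had 1 higher (2.56%) and 0 lower of 39 peaks by nearest start site and 5 higher (3.6%) and 0 lower of 139 by nearest coding gene, against 1.69% higher of all peaks.

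Tox, the transcription factor of the exhausted state, was more open in KO at several of its peaks. Of the 44 peaks with Tox as nearest start site, 3 were higher and 0 lower, log2 changes ran from -0.04 to 1.97 with a median of 0.847, and in 23 the KO libraries all lay above the WT libraries, against 0 the other way; over all peaks 1.69% were higher and 10.7% separated upward. The called peak of smallest p (chr4:6930071-6931490) had 3.88, 7.12 and 5.16 CPM in KO and 2.34, 0.855 and 1.75 CPM in WT (log2 change 1.64 ± 0.40, SE, adjusted p = 0.0231). Another intron peak (chr4:6882091-6886290) passed the p threshold with a smaller change, at 15.7, 20.4 and 14.1 CPM in KO and 7.05, 8.72 and 12.1 CPM in WT (log2 change 0.84, adjusted p = 0.0112). By nearest coding gene, 6 of 92 peaks were higher. The called peak at chr4:6930071 lost its call without WT replicate 2, KO replicate 2 or KO replicate 3, with offsets on GC content and with only the 6 libraries fitted (adjusted p up to 0.118). The list of 20 exhaustion and anergy regulators had 3 higher (1.96%), all at Tox, and 1 lower (0.654%), at Nfatc2, of 153 peaks, against 1.69% and 1.66% of all peaks, and its median of 0.0805 was close to that of all peaks. The Nfatc2 call was lost without WT replicate 1 or 2 or KO replicate 1 or 3.

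Inhibitory receptors, which the cell shows on its surface and which damp T cell activation, hardly moved as a list. Of 84 peaks at 16 genes, 2 were higher, at Izumo1r (which encodes folate receptor 4 of anergic cells and Treg) and at Btla, and 0 were lower, with a median of -0.03. The higher share was 2.38%, near the 1.69% of all peaks, and by nearest coding gene 4 were higher (Btla, Cd200, Ctla4 and Izumo1r) and 2 lower (Klrg1 and Tigit) of 164. Izumo1r (chr9:14806071-14807240) had 8.76, 9.75 and 11.7 CPM in KO and 3.49, 5.06 and 6.29 CPM in WT (log2 change 1.08, adjusted p = 0.00503), and lost its call without WT replicate 1 or KO replicate 3 and with only the 6 libraries fitted (adjusted p up to 0.0738). The Btla call was lost when any library but KO replicate 3 was left out, with only the 6 libraries fitted and with limma voom (adjusted p up to 0.139). The best peak of Lag3 had 16.0, 26.4 and 22.9 CPM in KO and 13.1, 15.9 and 18.6 CPM in WT and did not pass (log2 change 0.45, adjusted p = 0.163). By nearest start site, the best peaks of Pdcd1 (log2 change 0.30, adjusted p = 0.3), Havcr2 (-0.55, adjusted p = 0.118) and Tigit (0.37, adjusted p = 0.537) did not pass either, and for Lag3, Pdcd1 and Tigit the KO and WT libraries overlapped. The lower peak with Tigit as nearest coding gene had a log2 change of -1.58 (adjusted p = 0.00808).

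Genes tied to Treg had called peaks in both directions. Of 66 peaks at 13 genes, 2 were higher, at Ikzf2 (the factor Helios) and Il10, and 2 lower, at Il2ra (the IL-2 receptor alpha chain) and Itgae (integrin CD103), which is 3.03% each way against 1.69% and 1.66% of all peaks. The Ikzf2 start-site peak (chr1:69721651-69722940) had 3.93, 8.83 and 4.86 CPM in KO and 1.02, 1.81 and 3.33 CPM in WT (log2 change 1.5 ± 0.38, SE, adjusted p = 0.0256). The Ikzf2 call was lost without WT replicate 1 or 2 or KO replicate 2 or 3, with offsets on GC content and with only the 6 libraries fitted (adjusted p up to 0.138). The Il2ra call was lost when any of the same 4 libraries was left out, with the older form of the quasi-likelihood test and with only the 6 libraries fitted (adjusted p up to 0.179). The Itgae call was lost without WT replicate 1 or KO replicate 3, with only the 6 libraries fitted and with limma voom (adjusted p up to 0.117). By nearest coding gene the list had 7 higher (5.43%) and 5 lower (3.88%) of 129 peaks. Among these, Ikzf2 had 6 higher of 29 peaks and Il2ra 3 lower. The summed Treg markers given above were higher in KO than in WT Tconv, within the range of naive cells. The part of Treg-like cells in the result was not tested, and Helios is also found outside Treg.

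Th1 genes had called shares near or below those of all peaks. Of 82 peaks at 16 genes 1 was lower (1.22%), in an intron of Il18rap (a subunit of the IL-18 receptor), and 0 were higher. By nearest coding gene 3 of 217 were higher (1.38%), at Hlx and Il12rb2, and 2 lower (0.922%), at Il18rap and Runx3. Over all peaks 1.69% were higher and 1.66% lower. Neither Tbx21, which encodes T-bet, nor Ifng, the Th1 cytokine, had a called peak among 9 and 34 peaks by nearest coding gene. Th17 genes had 1 lower peak of 54, at Rora, and by nearest coding gene 9 lower and 1 higher of 105, the lower ones at Ahr (6) and Rora (3), and the Rora call by nearest start site was lost without KO replicate 3. The sets of Th1 and exhaustion genes compiled by the study had 0 higher and 8 lower (2.38%) of 336 peaks, and 12 higher (2.62%) and 6 lower (1.31%) of 458 peaks by nearest start site, against 1.69% and 1.66% of all peaks. By nearest coding gene they had 9 higher and 17 lower of 845, and 34 higher and 22 lower of 1168.

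Most other lists had few or no called peaks. No peak was called by nearest start site in the lists of naive and memory genes (125 peaks), AP-1 and BATF factors (66), chemokine and homing receptors (74), cell cycle genes (58), interferon-stimulated genes (27) and germline genes (4). Lower peaks numbered 3 of 160 for T cell receptor signalling (Rasgrp1 and Lcp2), 3 of 68 for cytokine receptors (Ifngr2 and Il2ra), 2 of 62 for cytotoxic genes (Klrk1 and Zeb2), and 1 each for costimulatory receptors (Ly9), apoptosis genes (Casp8) and heterochromatin machinery (Dnmt3a), with 0 higher in each, against 1.66% lower over all peaks. The calls at Rasgrp1, Klrk1, Zeb2, Casp8 and Ifngr2 were lost when at least 1 library was left out, WT replicate 2 or KO replicate 2 among them. Neuronal genes, which T cells keep silent, had 1 higher and 0 lower of 28 peaks, and by nearest coding gene 7 higher and 0 lower of 78, against 1.69% higher over all peaks, with Dscam, Rbfox1, Dlg2 and Lrp1b among the genes that had them.

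**Figure D3:**
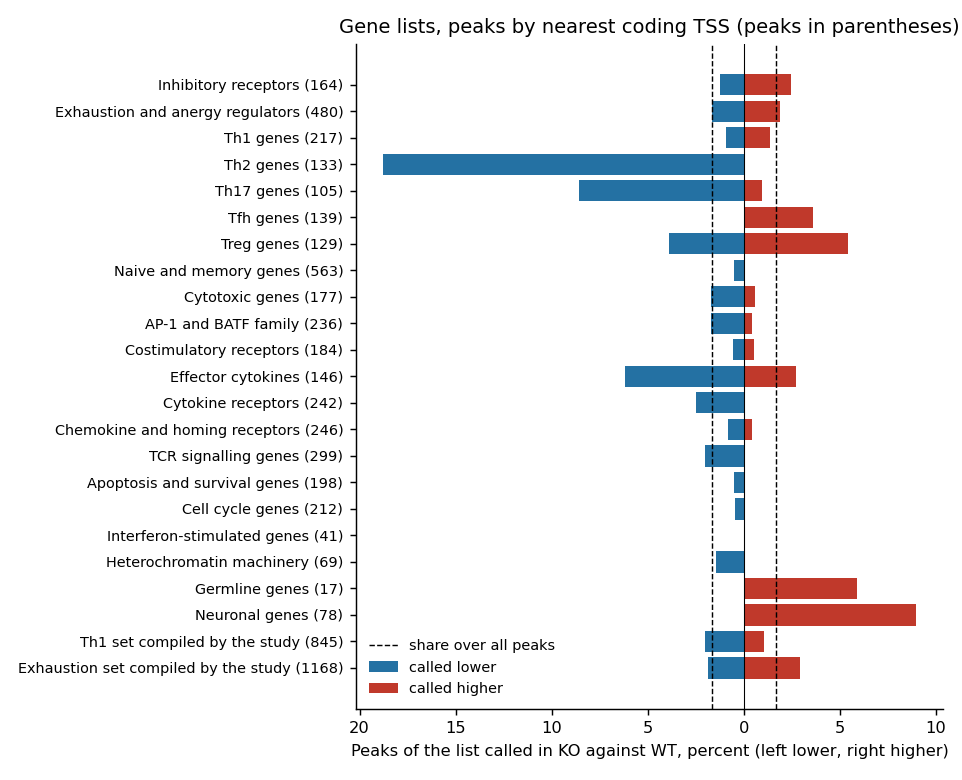
Percent of the peaks of each gene list called higher or lower in KO against WT Tconv, by nearest coding start site, with lower to the left and higher to the right. The Th2 list stands at 18.8% lower and 0 higher, and effector cytokines at 6.16% lower and 2.74% higher.

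Beside Cd4, the higher peaks of smallest p included ones nearest to Gm19786 (log2 change 4.93), Gm29345 (4.07), Gm60894 (3.86), Gm55565 (3.40), Selenok-ps6 (3.32), Gm33430 (3.26), Gm62896 (3.05) and Gm49214 (3.03). At Gm19786 (chr12:18599261-18600500) the KO libraries had 7.55, 6.12 and 8.18 CPM and the WT libraries 0.193, 0.222 and 0.331 CPM. This locus on chromosome 12 also held the 3 largest increases of all, in and at the start of 5730507C01Rik, with log2 changes of 5.33, 5.11 and 4.93. The start-site peak there (chr12:18563981-18565470) had 13.7, 19.0 and 20.9 CPM in KO and 0.223, 0.581 and 1.07 CPM in WT. It was also higher in Tconv with Treg, by 3.81, while its change of 2.18 in naive cells did not pass the test (adjusted p = 0.595) and its change in the HP1α line was 0.74.

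The lower peaks of smallest p, apart from Il4, included those at Tor1aip2 (log2 change -2.86), Gm39974 (-2.86), Gm71882 (-2.71), Ergic1 (-1.74), 3110018I06Rik (-1.68), Gm60027 (-1.37), Vrk1 (-1.2) and Gm31367 (-1.2). Ergic1, an endoplasmic reticulum to Golgi transport protein, had 4.29, 3.80 and 3.0 CPM in KO and 12.7, 14.5 and 8.76 CPM in WT at its start site. Vrk1, a chromatin kinase, had 21.1, 13.2 and 16.6 CPM in KO and 44.9, 41.5 and 31.8 CPM in WT at its start site. The 3 largest decreases, at Ywhab, Gm64276 and Src, rested more on single libraries: the Ywhab peak had 10.7, 2.41 and 0.623 CPM in WT and 0.0809, 0.514 and 0.275 CPM in KO (log2 change -4.20 ± 0.84, SE, adjusted p = 0.00518).

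Higher and lower peaks differed in where they lay. Higher peaks were a median of 34.4 kb from the nearest coding start site, lower peaks 12.5 kb, and all peaks 8.38 kb. Intergenic sequence held 29.6% of higher, 20.8% of lower and 17.4% of all peaks, and introns held 41.7%, 55.1% and 42.9%. Start sites held 24.1%, 17.4% and 34.0%. The GC content was 45.9% for higher, 46.7% for lower and 48.0% for all peaks, and the median width was 650, 510 and 750 bp. Both groups were rare among the most open peaks: of 5 bins of equal size by mean level, the highest held 32 higher and 23 lower ones.

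Many called peaks were ones that open when a naive T cell becomes an allospecific Tconv. In the WT libraries of the HP1α line, which took no part in the HP1γ comparison, 17824 peaks, or 24.9% of all, were called higher in Tconv than in naive cells. These opened peaks made up 58.3% of the higher and 70.1% of the lower peaks. The Il4 intron, Il13 and Csf2 peaks given above rose by 1.58, 5.27 and 1.40 on the log2 scale in that comparison.

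Called peaks were spread over the genome but also came in blocks. Windows of 1 Mb with 5 or more higher peaks numbered 33 of 2131 and held 221, or 18.3%, of the higher peaks. Windows with 5 or more lower peaks numbered 37 and held 241, or 20.3%, of the lower ones. The blocks with the most higher peaks, named after their values were seen, were on chromosome 18 around Myo5b and Mapk4 (18 higher, 0 lower of 40 peaks), on chromosome 13 at Tmem161b and Ccnh (11 higher of 16), and on chromosome 15 at Ropn1l and Marchf6 (11 higher of 40). The Tox window held 8 higher peaks and the Vmn2r97, Vmn2r99 and Vmn2r100 window on chromosome 17 held 7. Over all peaks 1.69% were higher.

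The blocks with the most lower peaks were likewise named after their values were seen. The window of Csf2 and Il3 held 14 lower peaks, that of Epas1, a hypoxia-inducible factor, 12, and those of Gata3, of Il1rl1 and Il18rap, of Il4 and Il13, and of Jdp2 and Fos on chromosome 12 held 9 each. The last 3 windows also held 1 higher peak each. Epas1 had 7 lower of 23 peaks by nearest coding gene and Rbpj, the nuclear mediator of Notch signalling, 8 lower of 44, against 1.66% of all peaks. Both were chosen after their values were seen. Vomeronasal receptor genes, a clustered family silent outside the nose and likewise chosen afterwards, had 16 higher (19%) and 0 lower of 84 peaks, against 1.69% higher of all peaks, while olfactory receptor genes had 3 higher (1.49%) and 3 lower of 202. The median log2 change of the vomeronasal peaks was 0.426 here, 0.827 in naive cells and -0.145 in Tconv with Treg. The KO and WT donor mice were of mixed strain background, and whether the strain origin of a block differed between the KO and WT donors was not tested.

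Motifs were searched in the 300 bases at the centre of each peak, whatever its width, and a peak is said below to hold letters found there. The letters AGATAAG were found in this window, on either strand, in 197 of the 1185 lower peaks, which is 16.6%, in 35 of the 1207 higher peaks, which is 2.9%, and in 3.89% of all peaks. Searched over whole peaks, whose median width was 510 bases for lower, 650 for higher and 750 for all, the letters were in 24% of lower, 8.62% of higher and 12.5% of all peaks. With only the 6 libraries fitted, the share of lower peaks with the letters in the window was 8.22%. In the window, no other of the 12 motifs searched differed as much in share between lower peaks and all peaks. The letters of AP-1 factors (TGANTCA, where N is any base) were in 23.5% of lower, 17.1% of higher and 13.0% of all peaks, and those of RUNX factors (TGTGGTT) in 18.4%, 18.2% and 12.9%. T-box letters (AGGTGTGA), which T-bet recognises, were in 1.86%, 3.73% and 1.99%. TCF/LEF letters (CTTTGAAG) were in 1.27%, 3.98% and 2.72%, and NF-kB letters (GGGANTTTC) in 1.86%, 3.15% and 1.6%.

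The GATA difference was found in each kind of genomic place. Among lower peaks the letters were in 12.6% at start sites, 15% in exons, 17.5% in introns and 18.3% between genes, against 2.71%, 3.61%, 4.67% and 4.35% of all peaks there. Among the peaks that open in Tconv of the HP1α line, 17.1% of lower, 3.12% of higher and 4.67% of uncalled peaks held the letters. Read the other way, 142 of 925 opened peaks with the letters were lower in KO, or 15.4%, against 689 of 16899 without them, or 4.08%. A match is only a run of letters and is no measure of binding.

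The GATA peaks also stood apart library by library. The median log2 CPM of opened peaks with the letters, minus that of opened peaks without them, was -0.15, -0.25 and -0.40 in the KO libraries and 0.28, 0.21 and -0.10 in the WT libraries. Every KO library was thus below every WT library. In Tconv with Treg the same differences were -0.66, -0.37 and -0.45 in KO and -0.28, -0.02 and -0.16 in WT, again without overlap. Among the peaks called lower with Treg, 7.07% held the letters, and 5.78% of those not also called lower without Treg. The median log2 change of opened peaks with the letters was -0.29 without Treg and -0.214 with Treg, against 0.0603 and 0.189 for those without the letters, while in naive cells the medians were 0.532 and 0.513.

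**Figure D4:**
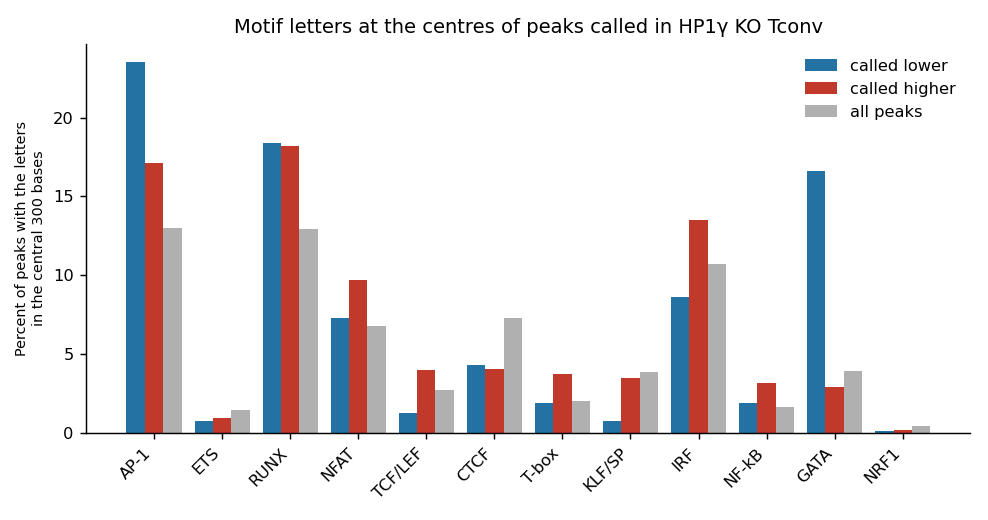
Percent of peaks that hold the letters of each motif in their central 300 bases, among peaks lower in KO, higher in KO and all peaks tested. GATA letters are in that window of 16.6% of lower, 2.9% of higher and 3.89% of all peaks.

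The called peaks were then followed in comparisons with no library in common with this one. In Tconv transferred with Treg, KO against WT gave 4635 higher peaks, or 6.48% of all, and 3847 lower ones, or 5.38%. Of the 1207 peaks higher without Treg, 789 were also higher with Treg, which is 65.4% of the first list and 17.0% of the second, and the median change of the 1207 there was 1.31. Of the 1185 lower peaks, 506 were also lower with Treg, which is 42.7% and 13.2%, and the 1185 had a median of -1.21. Over all 71508 peaks, which share intervals, base composition and 1 model, the changes with and without Treg had a correlation of 0.547. Of the 16 lower Th2 peaks, 7 were also lower with Treg, 0 were higher, and all 16 had a change below 0. Over the whole Th2 list, 13 of 42 peaks were lower and 0 higher with Treg by nearest start site, but 22 lower and 8 higher of 133 by nearest coding gene, with 6 lower and 7 higher at Gata3.

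Tested directly, the KO effect with Treg minus that without Treg was called at 1 peak, or 0.0014% of all, although 9150 peaks had an unadjusted p under 0.05 (edgeR); DESeq2 called 799. The 1 peak was an intron peak of Trpm6, a magnesium channel (chr19:18743671-18744330). Without Treg it was lower in KO, at 3.99, 3.23 and 2.57 CPM against 8.78, 6.28 and 4.42 CPM in WT (log2 change -1.05, adjusted p = 0.0125). With Treg it was higher in KO, at means of 8.89 ± 1.58 and 3.57 ± 0.713 CPM (SD, n = 3; log2 change 1.36, adjusted p = 0.000757), and the difference was 2.42 ± 0.34 (SE, adjusted p = 0.03). No peak was called without WT replicate 1 or 2 or KO replicate 2 or 3, and without KO replicate 2 with Treg 285 were.

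In naive cells few peaks differed between KO and WT, with 95 higher, or 0.133% of all, and 5 lower, or 0.00699%. Of the peaks higher in Tconv, 34 were called higher in naive cells and 90.0% had a change above 0, with a median of 0.918, against 54.8% of all peaks above 0. Of the lower peaks, 0 were called in naive cells and 68.3% had a change above 0, with a median of 0.291, opposite to their direction in Tconv. These values moved with the level of opened peaks as a whole, whose median log2 CPM was -0.57, -0.66 and -1.27 in the naive KO libraries and -1.25, -1.60 and -1.63 in the naive WT libraries; its part in the result was not tested. In Tconv the corresponding medians were 1.03 to 1.2 in KO and 1.02 to 1.10 in WT.

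The follow-up in naive cells was therefore also split by opening. Among peaks not opened in the HP1α line, the median naive change was 0.374 for higher, -0.128 for lower and -0.0189 for uncalled peaks. Among opened peaks it was 1.41, 0.592 and 0.483. Higher peaks were thus further up than uncalled peaks of the same kind in both cases, and lower peaks were on either side of 0.

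Tested directly, the KO effect in Tconv minus that in naive cells was called at 10 peaks, or 0.014% of all, 5 in each direction, with 1 to 157 called when a library was left out (157 without WT Tconv replicate 3) and with 6803 peaks at an unadjusted p under 0.05 (edgeR); DESeq2 called 1382. Gm60673, Gm52792 and 9530086O07Rik were higher in KO Tconv (log2 changes 2.03, 1.66 and 2.05) with naive changes of -0.29, 0.03 and -0.02.

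With loss of another isoform, HP1α, few peaks were called. In Tconv without Treg of the HP1α line, 15 peaks were called between KO and WT, which is 0.021% of all. The median HP1α change was -0.166 over the peaks higher without HP1γ and -0.0007 over the lower ones, and 33.7% and 49.8% of them were above 0, against 45.6% of all peaks. For the HP1α line the fit held 15 libraries, since 3 libraries of HP1α Tconv with Treg that the study set aside were left out; a difference between the 2 isoforms was not tested.

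**Figure D5:**
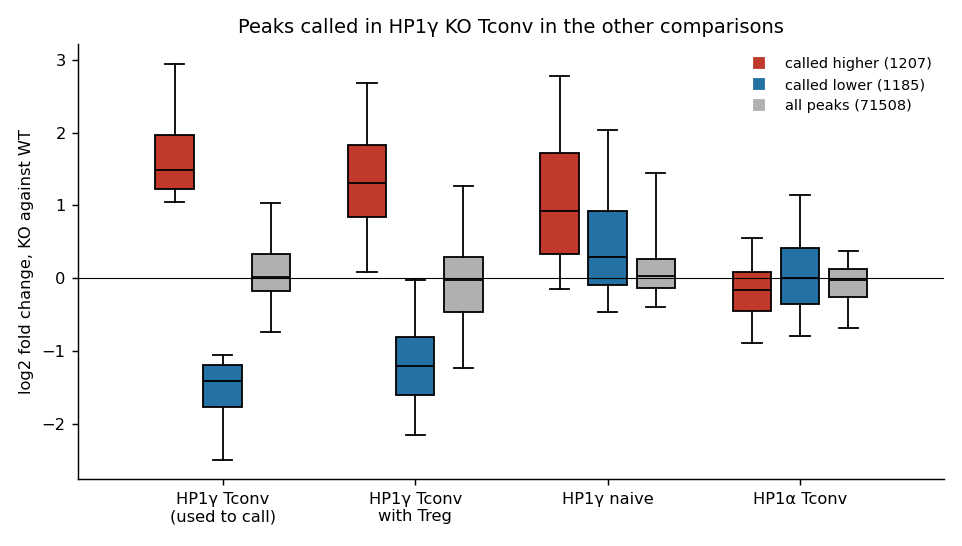
Log2 change of KO against WT for peaks called higher or lower in HP1γ KO Tconv and for all peaks, in HP1γ Tconv, naive cells, Tconv with Treg and HP1α Tconv (boxes span the quartiles, lines the 5th to 95th percentiles). With Treg the medians were 1.31 for higher and -1.21 for lower peaks, and in the HP1α line -0.166 and -0.0007.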

How the data were processed

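ATAC-seq of spleen CD4+ T cells was measured in 36 libraries. The authors trimmed reads with Trim Galore 0.6.7, aligned them to GRCm39 with BWA-MEM2, removed low-quality and blacklisted alignments, called accessible regions in each library with HMMRATAC, merged the regions and counted reads per interval with featureCounts 2.0.3. The deposited values were raw counts, with no normalization. Neighbouring peaks can share reads, and the merged set of regions was the same for every library.

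Of 71512 intervals, 3 of zero width were dropped. All 18 HP1γ libraries were fitted together with edgeR 4.0.16 (R 4.3.3) by a quasi-likelihood test, with TMM factors and filterByExpr, and adjusted by Benjamini-Hochberg over 71508 peaks. Calls required both an adjusted p below 0.05 and a log2 change beyond 1 in either direction (two-sided test). The estimated dispersion amounted to a biological coefficient of variation of 22.2%. Log2 CPM used a prior count of 2. Simulated counts were used to test the edgeR fit of the Tconv comparison. Alternatives used DESeq2 1.42.0, limma 3.58.1 and other scalings. Depth was 32599944 to 69210420 counted reads per Tconv library.

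Peaks were assigned to the nearest start site in the GENCODE vM39 annotation of GRCm39, either of any gene or of a coding gene, and a start-site peak lay within 1 kb of one. Named peaks were the 10 of smallest p in each direction whose libraries did not overlap, called peaks of the gene lists (up to 4 genes a list), fixed genes of interest, 5 in each direction for the difference from naive cells, and the 3 largest changes in each direction; peaks outside these rules are marked as chosen afterwards, and a few that the rules name are not reported here. The members and lists were chosen with earlier results of these data known. The same replicate number in KO and WT Tconv does not mark a shared origin in the labels. No 2 libraries agreed within sampling noise.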

Additional observations from a re-analysis of the deposited data

Results flagged for a closer look

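The KO effect in Tconv without Treg differed by a direct test from that in naive cells at 10 peaks, and from that in Tconv with Treg at 1 peak (edgeR quasi-likelihood test, adjusted over all peaks). Higher in Tconv than in naive cells were, among others, the effects at Gm60673 (difference of log2 changes 2.32 ± 0.33, SE, adjusted p = 0.0264), Gm52792 (1.63), Gm15560 (1.5) and 9530086O07Rik (2.08). Lower were those at 2 peaks of Gm70986 (-3.15 and -2.79), Gm37030 (-5.57), Gm70989 (-2.06) and Gm36897 (-1.28). The first 4 of these lower differences lie within 1 locus on chromosome 1, next to Fcgr2b, Fcrla and Fcrlb, which encode Fc receptors and Fc receptor-like proteins of B cells, and there the KO effect was 3.48, 3.13, 4.35 and 2.39 in naive cells and between -1.22 and 0.34 in Tconv, so the naive libraries decided the difference. With Treg, the Trpm6 peak had an effect 2.42 above that without Treg.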

How the results depend on the processing

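Of the peaks named for the Tconv comparison, 56 that were called were followed through 19 alternatives, where 0 changed direction and 27 kept the call under each; 393 higher and 163 lower peaks kept the call when any of the 6 libraries was left out, and 0 peaks were called the other way anywhere. The number of peaks called in Tconv was 2392, with 50.5% of them higher. It was 1291 (68.7% higher) with the older quasi-likelihood test, 460 (84.1%) with only the compared groups fitted, 3789 with a replicate block and GC offsets, and 955 to 3791 with 1 library left out: 1272 without WT replicate 1, 1072 without WT replicate 2, 3791 (37.3% higher) without WT replicate 3, 1549 without KO replicate 2 and 955 (77% higher) without KO replicate 3. Higher peaks, 1207 in all, numbered 387 with only the groups compared, 1886 with the replicate block, 2142 with the block and GC offsets, 1833 with limma voom, and 539 to 1687 with 1 library left out. Lower peaks, 1185 in all, numbered 404 with the older test, 1828 with loess offsets on mean abundance (34.5% of calls higher), 73 with only the groups compared, and 220 to 2377 with 1 library left out. Offsets on GC content gave 40.5% higher and DESeq2 61.5%.

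Same-numbered KO and WT libraries had deviations correlated at 0.537, 0.0761 and 0.245, so the numbers are not taken as pairs; the replicate block gave 3333 called peaks. The 10 differences from naive cells became 4 with RLE size factors, 18 with only the groups compared, 329 with the block, 293 with the block and GC offsets, 1382 with DESeq2, 1394 with limma voom, and 1 to 157 with 1 library left out. The 1 difference between Tconv with and without Treg became 0 with the older test, library size alone, log2 library size as covariate, only the groups compared, the block, the block with GC offsets and limma voom, 8 with loess offsets, 799 with DESeq2, and 0 to 285 with 1 library left out. The share of lower peaks with GATA letters was 8.22% with only the groups compared and 12.3% to 17.4% under the other fits; searched over whole peaks, a choice made after seeing the data, it was 24%. The cause of these changes was not tested.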

Other observations

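Beyond the T cell lists, the genes of smallest p among those the study compiled added a few peaks. Penk, the precursor of enkephalin peptides, had 2.35, 5.34 and 4.67 CPM at its start site in KO and 1.54, 1.66 and 1.58 CPM in WT (log2 change 1.35, adjusted p = 0.00564). By nearest start site 2 of its peaks were higher. The call at the start site was lost without KO replicate 3 and with only the 6 libraries fitted (adjusted p up to 0.0881). P2rx7, the receptor for extracellular ATP, had 0.263, 0.372 and 0.321 CPM in KO and 1.28, 2.03 and 1.01 CPM in WT (log2 change -2.20, adjusted p = 0.00141). Ptpn13, a tyrosine phosphatase, had 7.20, 7.69 and 6.10 CPM in KO and 20.2, 22.0 and 13.8 CPM in WT (log2 change -1.45, adjusted p = 0.000934). Spry2, an inhibitor of receptor tyrosine kinase signalling chosen after its values were seen, had 24.8, 24.0 and 19.7 CPM at its start site in KO and 8.28, 12.2 and 8.29 CPM in WT (log2 change 1.24, adjusted p = 0.00177).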
